A study of Rattus norvegicus with 8 samples.

Results

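A set of 10 genes of the endoplasmic reticulum (ER) was followed in castrated rats given testosterone: 7 that encode proteins of the folding machinery (Hspa5, Calr, Hsp90b1, Pdia3, Pdia4, Pdia6 and Canx) and 3 that encode proteins of the stress response (Xbp1, Atf4 and Chac1). They were chosen by name, as every gene spot of the array that carries a member's symbol, and make up 10 of the 26276 gene names on the array and 10 of the 10881 genes that were bright enough to be tested. Each member had a single 60-base probe, spotted once, except Atf4, whose probe was spotted 10 times. All 10 members passed the filter on dim probes, Pdia6 only through treated RNA of 24 h.

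The animals were male Wistar rats, adult at 120 ± 12 days. The label of every sample, treated or control, names castration, so all groups shared it. Testosterone propionate, an androgen ester, was given as a single subcutaneous dose of 4 mg/kg in 1 mL/kg of corn oil, and treated RNA was compared with control RNA on the same 2-colour array at 8 h (4 arrays) and at 24 h (4 arrays). Treated RNA carried each dye on 2 arrays of each time. The labels call the arrays biological replicates, but they do not say whether one RNA sample came from 1 animal or a pool, whether the controls received oil, or whether arrays of opposite dye repeat the same RNA. In that last case the p-values would measure technical spread and be too small. The labels describe the source as castrated rat cells and the series title names muscle atrophy. Of 15 skeletal muscle fibre genes, 13 were well above background in all 16 array channels, and 6 of 7 epithelial and accessory gland genes in none. The other gene of that list, Klk1c2, was well above background in all 16. Arrays of 8 h and of 24 h lay on separate slides, and the effects of slide and time cannot be told apart.

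The ER folds secreted and membrane proteins. Hspa5 (BiP) and Hsp90b1 (GRP94) are chaperones of its lumen, Calr and Canx bind glycoproteins during their folding, and the protein disulfide isomerases form and rearrange disulfide bonds. When unfolded proteins accumulate, the sensors IRE1, ATF6 and PERK start the unfolded protein response. IRE1 splices the Xbp1 mRNA, ATF6 and XBP1 act on chaperone promoters through the ER stress response element (ERSE), and PERK favours the translation of ATF4, a transcription factor whose targets include Chac1, an enzyme that breaks down glutathione. Splicing of Xbp1, and the proteins themselves, were not measured by these arrays.

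The ERSE is the pair of short boxes CCAAT and CCACG with 9 bases of any kind between them. It was searched for on both strands of RefSeq promoter windows (build GRCr8, 250 bases before to 50 bases after each gene's start), in which 8 of the 10 members had an entry and Pdia3 and Pdia6 did not. Of all 33469 windows, 22 (0.0657%) held it, and among them were those of 5 members: Hspa5, Calr, Hsp90b1, Canx and Xbp1. The matches are shown here because they mark the members that share this promoter feature. The members were not chosen by sequence, but the ERSE is a known element of chaperone promoters. Its presence among them is thus a description and no independent result. The sequences read 5′ to 3′ on the strand of the gene, with both boxes in capitals, and where the match lies on the opposite strand the boxes read CGTGG and ATTGG.
Hspa5, chr3:38452953-38453011, plus strand: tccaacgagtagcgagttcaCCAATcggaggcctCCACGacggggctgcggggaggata
Hsp90b1, chr7:23012431-23012489, minus strand: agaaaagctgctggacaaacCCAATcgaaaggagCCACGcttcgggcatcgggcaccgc
Hsp90b1, chr7:23012327-23012385, minus strand: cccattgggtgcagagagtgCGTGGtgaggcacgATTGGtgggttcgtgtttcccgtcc
Calr, chr19:40213117-40213173, plus strand: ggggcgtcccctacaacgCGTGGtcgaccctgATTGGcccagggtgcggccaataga
Canx, chr10:35158049-35158107, minus strand: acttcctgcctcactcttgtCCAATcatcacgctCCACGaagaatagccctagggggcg
Xbp1, chr14:84604538-84604596, plus strand: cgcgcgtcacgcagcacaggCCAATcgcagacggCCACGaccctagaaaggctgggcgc

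The match nearest to a start was that of Hspa5, which began 43 bases before it. The matches of Xbp1 and of the second Hsp90b1 site began 65 and 72 bases before the start, and those of the first Hsp90b1 site, Canx and Calr 176, 230 and 232 bases before it. No match was found in these windows of Pdia4, Atf4 or Chac1. A second motif, TGATGNAA, which ATF4 binds together with C/EBP proteins, was found on the opposite strand of the Chac1 window and in 3.98% of all windows, and in no other member. Its capitals mark the match, 167 to 160 bases before the start.
Chac1, chr3:126795944-126795991, plus strand: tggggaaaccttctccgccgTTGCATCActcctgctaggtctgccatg

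A further 2 motifs were absent from the windows of the 8 members: TGACGTGG, found in 0.595% of all windows, and the shorter ERSE-II form, ATTGG and CCACG with 1 base between, found in 0.0508%. The positions of the matches are counted from the RefSeq start and no binding was measured.

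Before the members are described, 2 arrays of 8 h need naming. Log2 ratios on replicate 1 had an SD over genes of 0.444, against 0.18 to 0.201 on the other 3 arrays of that time. Replicate 2 correlated over genes at r = 0.282 with replicate 1, where treated RNA carried the same dye. With replicates 3 and 4, of the opposite dye, it correlated at r = -0.125 and r = -0.0356. Replicate 1 correlated with replicates 3 and 4 at r = 0.292 and r = 0.374, although its dye was opposite to theirs too. Replicates 3 and 4 correlated with each other at r = 0.354. Arrays of 24 h correlated with each other at 0.229 to 0.706. The number of genes past the threshold at 8 h was 3 with all arrays and 1218 without replicate 2, so the 8 h values of the members are given with and without it.

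At 24 h, 3 chaperone genes were higher in treated RNA (Hspa5, Calr and Hsp90b1) and Chac1 was lower, while the remaining 6 members did not pass the test. The fit across all genes used limma with a coefficient for each time and one for the dye, and a gene passed at a Benjamini-Hochberg adjusted p below 0.05. Of the 10 members, 30% were called higher, where 4.14% of all tested genes were, and 10% were called lower, where 2.91% of all tested genes were. The members were chosen with earlier results of these data known, so these shares are a description only. The median log2 ratio of the 10 members was 0.25 and that of all genes 9.24e-05. In bulk RNA, a change in the number of cells that express a gene and a change in RNA per cell cannot be told apart.

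Hspa5 had the largest ratio among the members. Its log2 ratios of treated over control were 0.85, 0.57, 0.79 and 0.74 on the 4 arrays of 24 h. Treated samples lay between 7.78 and 8.11 in normalized log2 intensity and control samples between 7.05 and 7.26, so the groups did not overlap and every treated sample was the brighter one. The mean was 0.74 (SD 0.12, n = 4 arrays), which is 1.67-fold (limma adjusted p = 0.00545; 95% confidence interval 0.48 to 0.99). The call depended on 1 array: without replicate 1 of 24 h the mean was 0.64 and the adjusted p was 0.0568. The Hspa5 probe lies on chromosome 3 at 13787739 to 13787798 of rn4, the build of the array files, and all other probe positions are given on that build.

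Calr encodes calreticulin, which also buffers calcium in the ER lumen. Its log2 ratios were 0.58, 0.45, 0.46 and 0.58 on the arrays of 24 h, the narrowest spread of any member at that time. The treated samples lay between 7.93 and 8.20 and the control samples between 7.47 and 7.62, without overlap. The mean was 0.52 (SD 0.07, n = 4), or 1.43-fold (limma adjusted p = 0.00392), and the call held when each array was left out in turn. Its probe lies on chromosome 19 at 24967507 to 24967566.

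Hsp90b1 encodes GRP94, the HSP90 of the ER, and its log2 ratios at 24 h were 0.48, 0.43, 0.19 and 0.28. All were above 0, and the treated samples (6.72 to 7.10) did not overlap the control samples (6.43 to 6.62). The mean was 0.34 (SD 0.13, n = 4), or 1.27-fold (limma adjusted p = 0.0339). This call lay close to the threshold. It was lost when any 1 of the 4 arrays of 24 h was left out (adjusted p from 0.08 to 0.191, with means from 0.31 to 0.38) and without replicate 3 of 8 h (0.0614). A fit with the replicate number as a block gave 0.0574, although the labels do not say that these numbers pair the arrays. The Hsp90b1 probe is on chromosome 7 between 23334474 and 23334623.

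Chac1 moved the other way. Its log2 ratios were -0.32, -0.54, -0.42 and -0.52, below 0 on every array of 24 h. Treated samples lay between 6.77 and 7.002 and control samples between 7.08 and 7.45, which did not overlap. The mean log2 ratio of Chac1 was -0.45 (SD 0.10, n = 4), so it fell, with a treated level 0.733 times the control level (limma adjusted p = 0.00848). The call was lost without replicate 2 of 24 h (mean -0.42, adjusted p = 0.0539). It was also lost with arrays centred on their medians in place of loess, where the ratio was -0.26 (adjusted p = 0.186) and the median of all genes 0.155, so that Chac1 stood at -0.41 relative to that median. The probe of Chac1 is on chromosome 3 at 105872719 to 105872778.

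**Figure D1:**
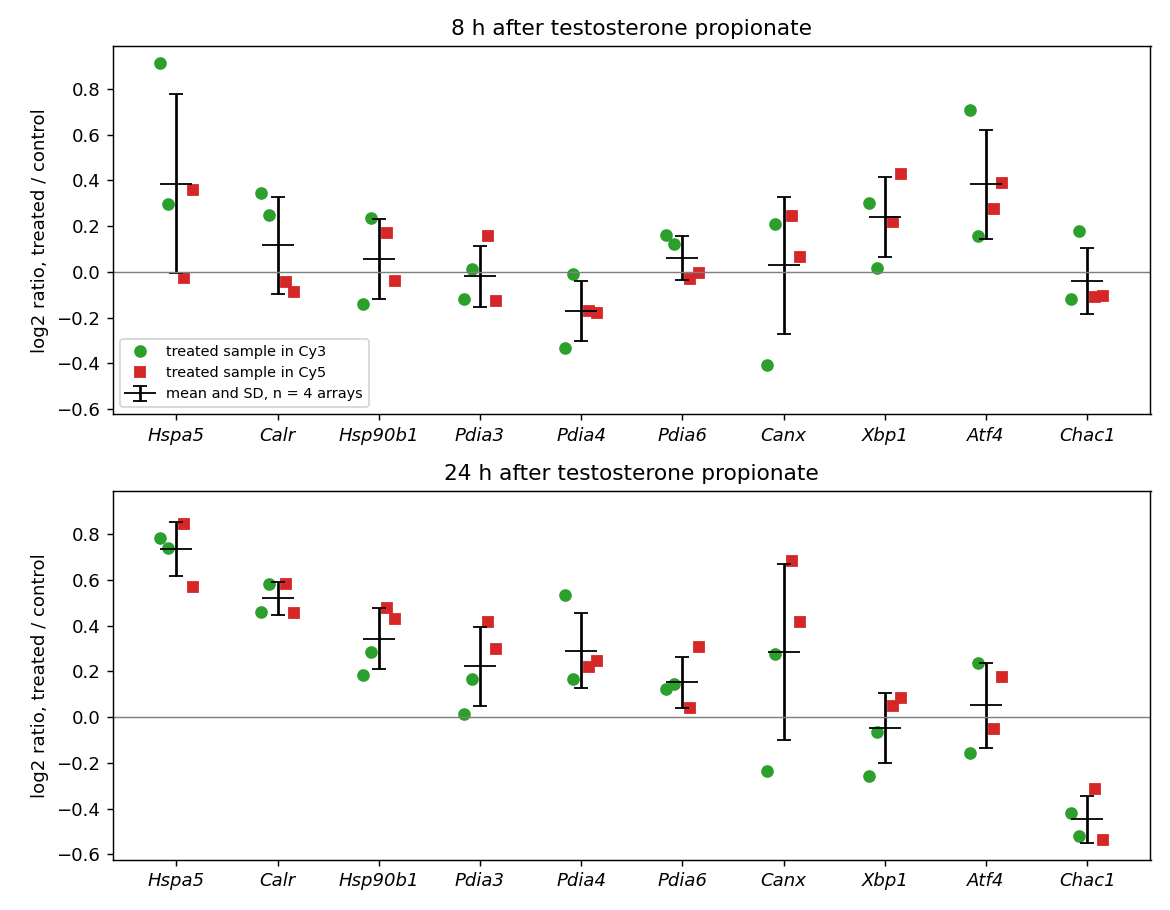
Log2 ratio of treated over control RNA (vertical axis) for each of the 10 genes at 8 h (top) and 24 h (bottom), with 1 point per array coloured by the dye of the treated sample and the mean with SD of 4 arrays in black. At 24 h the points of Hspa5, Calr and Hsp90b1 all lie above 0 and those of Chac1 all below, while at 8 h the points of Hspa5 run from -0.03 to 0.92.

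The protein disulfide isomerase genes had smaller ratios at 24 h and none passed. Pdia4 stood at 0.22, 0.25, 0.53 and 0.17 on the 4 arrays, with a mean of 0.29 (SD 0.17, limma adjusted p = 0.0632). The treated samples (7.09 to 7.29) and control samples (6.76 to 7.01) of Pdia4 did not overlap. Pdia3, which works with calreticulin and calnexin on glycoproteins, stood at 0.41, 0.30, 0.01 and 0.16, with a mean of 0.22 (SD 0.17, adjusted p = 0.113). Its treated and control samples came within 0.02 of each other without overlap (lowest treated 6.60, highest control 6.58).

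Pdia6 was the dimmest member. It was well above background in 0 of 4 control samples at each time, in 1 of 4 treated samples at 8 h and in 4 of 4 at 24 h, so its ratio has only a bound. The treated mean at 24 h was at least 1.10-fold the control level (limma adjusted p = 0.24). At that time its log2 ratios were 0.04, 0.31, 0.12 and 0.14, with overlap between treated and control samples. This bound sets the mean of the treated samples against the control mean, with each dim control value raised to the lowest signal among probes well above background on that array.

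Canx, the membrane-bound lectin chaperone, had the widest spread at 24 h. Its log2 ratios were 0.68 and 0.42 where treated RNA carried Cy5, and -0.24 and 0.28 where it carried Cy3. The mean was 0.28 (SD 0.39, adjusted p = 0.19), and the treated and control samples overlapped. The dye coefficient of Canx was 0.20 (adjusted p = 0.359), and no member's dye coefficient passed the threshold.

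Without Pdia6, which has only a bound, the median of the other 6 folding genes at 24 h was 0.53, 0.42, 0.32 and 0.28 on the 4 arrays. All 6 were above 0 on replicates 1, 2 and 4, and 5 of 6 on replicate 3, where Canx was below. Over all genes with 4 values at 24 h, 15.3% lay above 0 on every array. The median of the 6 fitted ratios was 0.32, with a range of 0.22 to 0.74.

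The transcription factors of the response did not pass the test at 24 h. Xbp1 stood at 0.05, 0.08, -0.26 and -0.06, with a mean of -0.05 (SD 0.15, adjusted p = 0.785). Atf4 stood at -0.05, 0.18, -0.16 and 0.24, with a mean of 0.05 (SD 0.19, adjusted p = 0.834). In both, 2 arrays lay above 0 and 2 below, and treated and control samples overlapped. The 95% interval ran from -0.21 to 0.12 for Xbp1 and from -0.18 to 0.28 for Atf4.

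**Figure D2:**
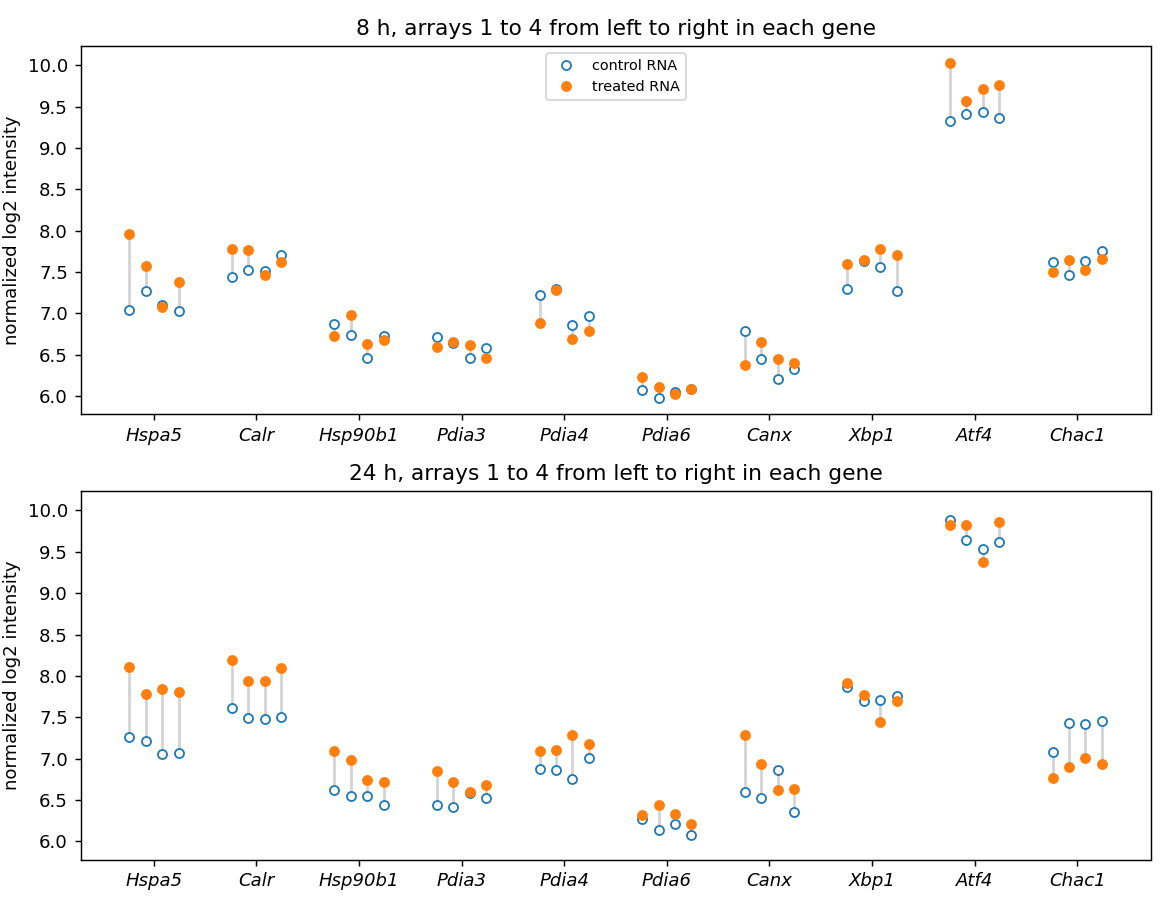
Normalized log2 intensity of control (open) and treated (filled) RNA for each gene at 8 h (top) and 24 h (bottom), with the arrays 1 to 4 side by side and a line joining the channels of an array. Filled points of Hspa5 at 24 h (7.78 to 8.11) lie above all open points (7.05 to 7.26), and those of Chac1 lie below. Brightness differs between probes and is no measure of the level of one gene against another.

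At 8 h no member passed the test with all arrays, against 0.0184% of genes called higher and 0.00919% called lower. Unadjusted p-values were below 0.05 for 3 members, Hspa5, Atf4 and Xbp1 (each with a limma adjusted p of 0.264), and for 17.1% of all genes. Without replicate 2 of 8 h, Hspa5 (0.47, adjusted p = 0.0454) and Atf4 (0.48, adjusted p = 0.0237) passed. Over all genes, 11.2% passed in that setting. Without replicate 1 of 8 h, the array with the wide spread, no member passed, with Hspa5 at 0.22 and Atf4 at 0.26 (adjusted p = 0.906 for each).

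Atf4 was above 0 on every array of 8 h, at 0.71, 0.16, 0.27 and 0.39. Treated samples lay between 9.57 and 10.03 and control samples between 9.32 and 9.44, with no overlap. The mean was 0.38 (SD 0.24, n = 4; unadjusted p = 0.00386). The SD between spots of the Atf4 probe within an array of that time was 0.0523 to 0.073 (8 spots on replicate 1, where 2 had outlier flags and were dropped, and 10 on the others), against the SD of 0.24 between arrays. Its probe is on chromosome 7 at 118538840 to 118538899.

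Hspa5 at 8 h varied more than any other member, with log2 ratios of 0.92, 0.30, -0.03 and 0.36. The largest value came from replicate 1, the array with the wide spread over genes. The mean was 0.38 (SD 0.39), and treated and control samples overlapped. Xbp1 was above 0 on all 4 arrays, at 0.30, 0.02, 0.22 and 0.43, with a mean of 0.24 (SD 0.17, unadjusted p = 0.00959), and a mean of 0.29 without replicate 2 (adjusted p = 0.0549). Of all genes with 4 values at 8 h, 9.42% were above 0 on every array.

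The other 7 members stood near 0 at 8 h, with means from -0.17 to 0.12. Pdia4 was the lowest, at -0.33, -0.01, -0.17 and -0.18, below 0 on all 4 arrays as were 12% of all genes (mean -0.17, SD 0.13, adjusted p = 0.311). Calr had a mean of 0.12 (SD 0.21), with 0.35 and 0.25 on the arrays whose treated RNA carried Cy3 and -0.04 and -0.09 on those with Cy5. Hsp90b1 (0.06), the dim Pdia6 (0.06), Canx (0.03), Pdia3 (-0.02) and Chac1 (-0.04) each had values on both sides of 0. Without replicate 2 the means were -0.23 for Pdia4, 0.10 for Calr, -0.07 for Pdia3, 0.05 for Pdia6 and -0.12 for Chac1, and the signs of Hsp90b1 (-0.04) and Canx (-0.12) reversed. None of these 7 passed in that setting.

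The response was then compared between the times. No member passed for the difference, where 0.726% of all genes were called higher at 24 h than at 8 h and 0.57% lower, although 7 of the 10 members had an unadjusted p below 0.05, as did 16.2% of all genes. The difference of log2 ratios was 0.46 for Pdia4 (SE 0.12, limma adjusted p = 0.0844), 0.40 for Calr (SE 0.11, adjusted p = 0.0949) and -0.41 for Chac1 (SE 0.11, adjusted p = 0.0946). Pdia4 passed without replicate 2 of 8 h (0.52, adjusted p = 0.0447), and Calr passed with arrays weighted by quality (0.48, adjusted p = 0.036).

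The 6 folding genes other than Pdia6 had a positive difference, from 0.24 to 0.46 with a median of 0.32, and Xbp1 (-0.29), Atf4 (-0.33) and Chac1 (-0.41) a negative one. The adjusted p was 0.323 for Hspa5, 0.221 for Xbp1 and 0.292 for Atf4. The rise of Hspa5 at 24 h was thus not shown to exceed its ratio at 8 h, the interval of the difference running from -0.01 to 0.71.

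**Figure D3:**
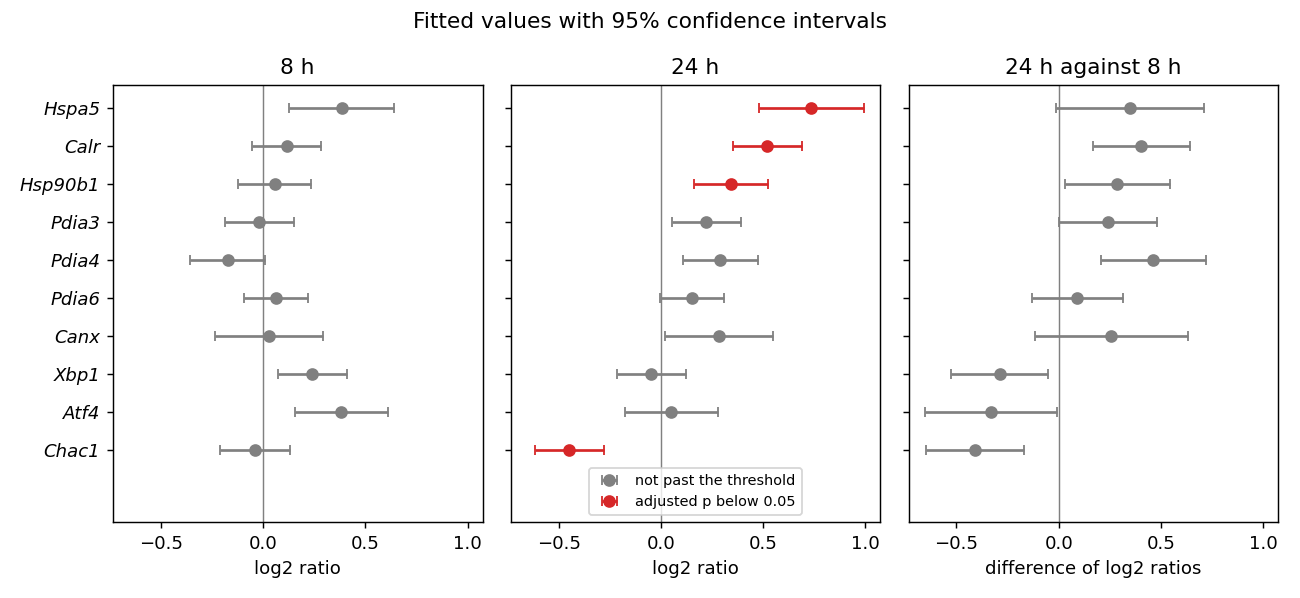
Fitted log2 ratio of treated over control at 8 h (left) and 24 h (middle) and the difference of these ratios (right) for the 10 genes, with 95% confidence intervals; red marks an adjusted p below 0.05. Red points appear at 24 h only, for Hspa5, Calr, Hsp90b1 and Chac1, while no gene passed for the difference.

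Over the 8 arrays, the log2 ratio of Calr correlated with that of Hspa5 at r = 0.80, and the other members, leaving out the dim Pdia6, at -0.51 (Chac1) to 0.36 (Pdia4). The arrays share their slides and dyes, and the correlation is given as a description. Outside the members, Rarres2 (r = 0.96), Tfrc, the transferrin receptor (0.95), Il1r2, a decoy receptor of interleukin-1 (0.93), Ufc1, an enzyme of the UFM1 pathway (0.93), and Ly86 (0.93) followed Hspa5 most closely among 6433 genes with a symbol. Il1r2 was well above background in no control sample and Tfrc in none of 8 h, so their correlations rest in part on dim values.

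Other genes of the pathway were read from 5 lists, 146 genes in all, of which 96 were bright enough to be tested. At 24 h, 16 of the 96 were higher and 2 lower, and the rest did not pass. Among 19 other ER chaperones and folding enzymes, 5 rose and 0 fell, with a median of 0.11. They were Hyou1, a large chaperone that works with BiP (0.49, adjusted p = 0.00849), Fkbp2, a prolyl isomerase (0.47, 0.00291), the calcium-binding Calu (0.39, 0.0262), Manf, a secreted factor of the ER stress response (0.38, 0.0166), and Erp29, at least 1.16-fold (0.045). Erp29 has a bound only, since it was well above background in 0 control samples, and it passed the filter through treated RNA of 24 h alone.

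The longest list covered entry into the ER, glycosylation and export. Of its 32 tested genes, 8 rose and 0 fell at 24 h, and 29 had a ratio above 0 (median 0.13, against 9.24e-05 over all genes). At 8 h, where none of the 32 passed, 23 had a ratio above 0 (median 0.07). Sec61b (0.62, adjusted p = 0.0252) and Sec61g (0.33, 0.0283) encode subunits of the translocation channel, and Ssr3 (0.61, 0.00463) and Ssr4 (0.43, 0.00884) subunits of the translocon-associated protein complex. Surf4 (0.62, 0.00434), a cargo receptor, and Sar1a (0.35, 0.0347), the GTPase that starts vesicle coats, act in export.

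ER-associated degradation, which removes misfolded proteins, had 0 of 16 genes past the threshold in limma's fit at 24 h, with 2 at an unadjusted p below 0.05 (12.5%, against 22.1% of all genes; median 0.01). The smallest p belonged to Herpud1 at -0.37 (adjusted p = 0.145) and Derl1 at 0.27 (0.171). The background shares of 4.14% and 2.91% apply to these counts as well. The lists, too, were chosen with earlier results of these data known, so their counts are a description only.

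**Figure D4:**
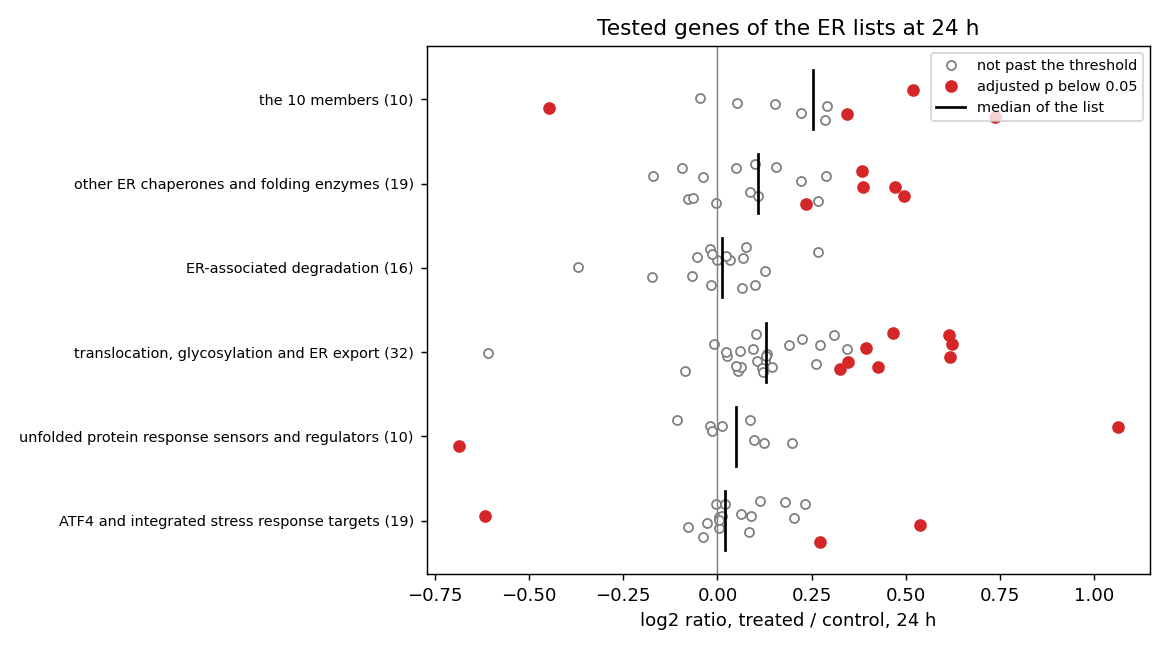
Log2 ratio of treated over control at 24 h for the 10 members and for each tested gene of the 5 lists, with 1 point per gene, the number of tested genes in brackets, the list median as a black line and genes past the threshold in red. Vertical scatter within a row only separates points. Red points lie to the right of 0 in the chaperone and translocation lists, and the degradation list has none.

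Among 10 tested sensors and regulators of the unfolded protein response, 1 rose and 1 fell, where 4.14% and 2.91% of all tested genes did. Of the sensors named above only Atf6 was tested, and it did not pass (0.12, limma adjusted p = 0.30). The genes of IRE1 (Ern1) and PERK (Eif2ak3) were too dim to be tested. Creb3l1, a membrane-bound transcription factor related to ATF6, rose by 1.06 (SD 0.14, adjusted p = 0.00026). Ppp1r15a (GADD34), which directs the removal of phosphate from eIF2α, fell by 0.68 (SD 0.31, adjusted p = 0.00551). These were the only genes of the 5 lists whose ratio differed between times in the fit with all arrays, by 1.13 (adjusted p = 0.00728) and -0.89 (adjusted p = 0.0241).

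Among 19 tested targets of ATF4 and the integrated stress response, 2 rose and 1 fell, with a median of 0.02. Gpt2, an alanine aminotransferase, stood at 0.54 (adjusted p = 0.00744) and Phgdh, the first enzyme of serine synthesis, was at least 1.17-fold higher (0.0284), a bound because 0 of 4 control samples of 24 h were well above background. Cebpb, a transcription factor, fell by 0.62 (adjusted p = 0.0356). Ddit3 (CHOP), the ATF4 target tied to cell death, stood at 0.18 (SD 0.27) and did not pass.

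At 8 h, 0 of the 96 list genes passed in limma's fit with all arrays (10, or 10.4%, at an unadjusted p below 0.05, against 17.1% of all genes). Without replicate 2 of that time 8 passed, or 8.33%, against 11.2% of all genes. The counts at 24 h rested on single arrays too. Without replicate 1 of 24 h, 4 list genes were higher in place of 16, and without replicates 2, 3 or 4 the count was 10, 7 and 7. Over all genes the count of 450 higher became 115 without replicate 1, and 195, 203 and 211 without replicates 2, 3 and 4.

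Of 21 genes whose promoter window held the ERSE, 16 were not members, and 5 of these were tested. One of them rose at 24 h, Hnrnpa3, an RNA-binding protein (0.38, adjusted p = 0.00631). Dnajc3, a co-chaperone of the ER, stood at 0.05, Ppm1l at 0.17, Foxd4 at -0.25 and Zfand2a at -0.33, and none of these passed. Of the 5 members with the motif, Hspa5, Calr and Hsp90b1 rose, and Canx and Xbp1 did not pass.

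Markers of cell types moved as well between treated and control RNA. Of 9 tested fibroblast markers, 3 rose at 24 h, the collagens Col1a1 (1.54), Col3a1 (1.48) and Col1a2 (1.13). The other 6 did not pass: Mfap5 (0.13), Fbln1 (0.03), Dcn (-0.002), Pdgfra (-0.03), Dpt (-0.05) and Lum (-0.25). Lum was below 0 on all 4 arrays of 24 h (limma adjusted p = 0.0757). The summed intensity of the 11 fibroblast markers, the 3 collagens included, was 5757 to 7857 in control samples and 10150 to 16480 in treated samples at 24 h. At 8 h it was 6601 to 11550 in controls and 5805 to 7361 in treated samples. Without replicate 2 of 8 h, 1 of the 9 was lower (median -0.20), where 11.2% of all genes passed in either direction. Thy1 and Fap were well above background on no array.

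Of 10 tested macrophage and monocyte markers, 4 rose at 24 h (median 0.40), and at 8 h none passed (median -0.29). At 8 h, 6 of them had an unadjusted limma p below 0.05, against 17.1% of all genes. Summed over 13 genes, the macrophage intensity at 24 h was 4473 to 5555 in control and 5766 to 7669 in treated samples, without overlap. At 8 h it was 4994 to 7454 in control and 4249 to 6729 in treated samples. Without replicate 2 of that time 2 of the 10 markers were lower (median -0.34), where 11.2% of all genes passed in either direction. Mrc1 and Ptprc were likewise well above background on none. All 3 tested adipocyte markers were above 0 at 24 h (median 0.39), where Fabp4 rose (0.43, adjusted p = 0.00389) and Adipoq (0.37) and Cfd (0.39) did not pass. For the difference between times Fabp4 passed (0.60, limma adjusted p = 0.013). So did 3 fibroblast markers (Col1a1 2.10, Col1a2 1.78, Col3a1 2.08), 3 macrophage markers (Cd163 0.85, C1qa 0.77, C1qc 0.76) and the muscle fibre marker Myh1 (2.88). Over all genes, 0.726% were called higher and 0.57% lower. The summed adipocyte intensity was 1306 to 1633 in control and 1471 to 2385 in treated samples of 24 h, with Lep and Cidec well above background on no array. Of 4 tested endothelial markers (median 0.04), Kdr rose at 24 h (0.36, adjusted p = 0.0416). Pecam1 (0.14), Vwf (-0.07) and Cdh5 (-0.27) did not pass. The summed endothelial intensity was 1081 to 1300 in control and 1143 to 1313 in treated samples. Skeletal muscle fibre markers had a median of -0.36 at 24 h, with 2 of 13 lower and 1, Myh1, higher. Over all tested genes 2.91% were lower and 4.14% higher at 24 h. The summed muscle fibre intensity was 220600 to 255500 in control and 169500 to 202000 in treated samples of 24 h. At 8 h no muscle fibre or endothelial marker passed with all arrays. Without replicate 2 of 8 h, 5 of 13 muscle fibre markers (median -0.16) and 2 of 4 endothelial markers (median -0.34) were lower at 8 h. Of the B cell and plasma cell list, 4 of the 6 with a probe were well above background in no channel, and the summed intensity of the list was 395.8 to 434.7 in control and 410.9 to 416.3 in treated samples at 24 h. The part of cell composition in the chaperone changes was not tested.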

How the data were processed

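The data come from 8 2-colour Agilent arrays of rat RNA. Per the labels' protocols, RNA was extracted with Trizol and labelled with a Quick Amp kit, and Agilent Feature Extraction 9.5.3.1 quantified the images, per the submitters' processing notes. The deposited mean signals and local backgrounds are raw linear intensities, and the processed signals are intensities corrected and dye-normalized by the scanner software, per the file headers. The authors' deposited table holds log2 ratios. Set against the scanner files, it equals log2 of treated over control processed signal, with channels assigned from the labelled dyes (largest difference 1.4e-05), with no centring added (column medians -0.144 to 0.0896), and served as an alternative. Signal over background and the number of arrays limit the precision.

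Mean signals were corrected with normexp (offset 50) and normalized by loess within arrays with R 4.3.3 and limma 3.58.1. Spots of controls and those with outlier flags (731 to 927 among the 42877 gene spots of an array) were dropped. Repeated spots were averaged. A probe had to be well above background on at least 3 of 4 arrays in 1 or more of the 4 RNA groups (12074 of 30367 probes). Each gene was represented by its brightest kept probe. Levels per channel were scaled between arrays by their average intensity (Aquantile). Names came from RefSeq (GRCr8, names only) by accession for 18377 probes and by the array's own symbol or a synonym for 3013, and 8977 had none. No genome of rn4 was used, so probes are not placed in exons.

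The model held 1 coefficient per time and, for every probe, 1 for the dye. It was fitted over all genes with lmFit and eBayes, two-sided, with Benjamini-Hochberg adjustment at 0.05. The fit was tested on simulated data in which a gene had the same spread on every array. That test cannot show how the fit behaves where arrays differ in spread, as those of 8 h did. The labels do not say whether replicate numbers pair the arrays of the 2 times, and the main fit held no replicate block. Deviations of same-numbered arrays from the mean of their time correlated at -0.261 to 0.172. Same-numbered arrays carried treated RNA in opposite dyes and the dye was not removed first, so these values cannot show whether they are paired. All members are named; of each list, up to 6 genes past the threshold in each direction were named by adjusted p, or the 2 with the smallest p. The values of Ddit3, of single cell type markers and of the ERSE genes were chosen for the text after they were seen. The 5 genes most like Hspa5 were those with the highest correlation. The members and the lists were chosen with earlier results of these data known. Motifs were searched in RefSeq promoter windows, and a match is a description only.

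Alternatives covered the background correction, processed signals, the authors' values, median centring, 2 other filters, 2 other probe rules, the dye coefficient, the arrays in the fit, array weights, a replicate block, flagged spots and leaving out each array. Leaving out replicates 1 and 2 of 8 h together was chosen after seeing the data.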

Additional observations from a re-analysis of the deposited data

Results flagged for a closer look

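Chac1 at 8 h had 1 array apart from the others: replicate 2 stood at a log2 ratio of 0.18 and the other 3 between -0.12 and -0.10, a gap of 0.947 of the whole range. A gap this wide occurs by chance in some groups of 4 arrays. Without that array the 8 h ratio was -0.12 (limma adjusted p = 0.347), and Chac1 did not pass either way. Replicate 2 is also the array whose removal moved the calls over all genes at 8 h from 3 to 1218.

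Pdia4 was below 0 on all 4 arrays at 8 h and above 0 on all 4 at 24 h. The difference of its log2 ratios was 0.464 (SE 0.12), and the test of that difference gave a limma adjusted p of 0.0844, so it did not pass. Each time lay on a slide of its own.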

How the results depend on the processing

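Every member was computed under up to 22 alternatives, the removal of replicates 1 and 2 of 8 h together among them. At 24 h, Calr passed in all 22 alternatives, Hspa5 in 21, Chac1 in 20 and Hsp90b1 in 16. Pdia4, which did not pass in the main analysis, passed in 9. No folding gene reversed at that time. These alternatives are not independent checks. The processed signals and the authors' values are the same ratios (largest difference 1.4e-05). Other filters, other probe rules and the removal of an array of 8 h left the 24 h ratio itself unchanged, at 0.52 for Calr. The count of members higher at 24 h (3) was 5 with the processed signals and 5 with the authors' deposited values, which added Pdia4 (0.65) and Pdia6 (1.12, not well above background in control samples, so that size is no measured fold), and it ran from 1 to 4 with each array left out. The count lower (1) was 0 with median centring and 0 to 1 with each array left out. At 8 h the count (0) ran from 0 to 2 with each array left out; for the difference between times (0) it was 1 with array weights and 0 to 1 with each array left out. For the 5 lists, 16 higher at 24 h became 10 with processed signals, 10 with the authors' values, 10 with median centring and 4 to 21 with each array left out; 2 lower became 1 with processed signals, 1 with the authors' values, 0 with median centring, 4 with the replicate block and 1 to 3 with each array left out. At 8 h their count (0) was 0 to 8 and for the difference (2) it was 0 with median centring, 4 with array weights and 1 to 9 with each array left out. The replicate block ended the call of Hsp90b1 (adjusted p = 0.0574) and changed no other call of a member. Apart from fewer arrays in a fit, the cause was not tested.

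Signs near 0 reversed. Pdia3 at 8 h was 0.0485 without background subtraction, 0.11 with processed signals and with the authors' values, 0.0488 with median centring and -0.0654 to 0.06 with each array left out. Canx at 8 h was -0.00534 with array weights and -0.12 to 0.12 with each array left out. With each array left out, Hsp90b1 at 8 h ran from -0.0394 to 0.12, Chac1 at 8 h from -0.12 to 0.00272 and Atf4 at 24 h from -0.0140 to 0.14. Without replicates 1 and 2 of 8 h together, that time stood at -0.0643 for Calr, -0.0431 for Hsp90b1, -0.0390 for Pdia6 and -0.11 for Canx. Median centring turned Xbp1 at 24 h to 0.24 and Chac1 at 8 h to 0.23, and under it the all-gene median was 0.123 (8 h) and 0.155 (24 h); relative to that they stood at 0.09 and 0.11, and Hspa5 at 24 h at 0.85. Under it 380 genes were higher and 18 lower at 24 h, against 450 and 317 in the main analysis. Over all genes at 24 h, the calls ran from 115 higher and 76 lower without replicate 1 of 24 h to 961 higher and 865 lower without replicates 1 and 2 of 8 h. Pdia6 was not kept by the strict filter on dim probes.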
